A study of Mus musculus with 10 samples.

Results

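The 10 genes described here store, import, export or sense iron, and were chosen as a list of named rows of a gene count table with 39488 rows, of which 29700 were not circular RNAs. They are the ferritin chains Fth1 and Ftl1, the ferritin cargo receptor Ncoa4, the importers Tfrc and Slc39a14, the vesicular transporters Slc11a1 and Slc11a2, the exporter Slc40a1, the ferroxidase Cp and the iron sensor Ireb2. All 10 had a row and passed the filter on low counts. The cells were thioglycollate-elicited peritoneal macrophages from C57BL/6 mice aged 8 weeks, collected on day 3 after the injection. Bulk RNA-seq on the BGISEQ-500 platform gave 5 control libraries, which the labels call untreated, and 5 ox-LDL libraries, from cells primed with LPS at 100 ng/ml and then given oxidized low-density lipoprotein (ox-LDL) at 100 µg/ml for 16 h. By these labels LPS and ox-LDL were added to the same group, so their contributions cannot be told apart. What the controls received is not settled: the treatment text given for every sample, controls included, names ox-LDL for 16 h, and a legend of the study can be read as LPS priming in both groups. The label of each sample was followed, and every comparison rests on it. The sources used here do not say whether replicates came from separate mice, so the p-values measure the spread between these samples, which may be technical.

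Macrophages that engulf aged red cells break down the heme and free its iron. They keep that iron in ferritin or return it to the blood through ferroportin, the product of Slc40a1. Whether the cells used here took up red cells was not tested. Ferritin is a hollow shell of heavy chains (Fth1), which oxidize iron as it enters, and light chains (Ftl1), which help the mineral core to form. Several of these genes carry iron-responsive elements, short RNA hairpins with a CAGUG loop that iron regulatory proteins bind when iron is scarce. A hairpin in the 5′ untranslated region blocks translation on binding, and hairpins in the 3′ untranslated region of Tfrc stabilize its mRNA, so part of this control does not appear in mRNA levels.

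A search of the annotated untranslated regions for the hairpin found it in 4 of the 10 genes. The sites are shown because they separate the storage and export genes, with a site before the coding sequence, from the transferrin receptor, with 4 sites after it. Each is 27 bases long on the strand of the gene, with the 5 loop bases in capitals.

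Fth1, 5′ site: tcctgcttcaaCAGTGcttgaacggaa
Ftl1, 5′ site: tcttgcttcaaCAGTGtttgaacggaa
Slc40a1, 5′ site: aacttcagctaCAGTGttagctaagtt
Tfrc, 3′ site 1: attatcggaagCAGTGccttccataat
Tfrc, 3′ site 2: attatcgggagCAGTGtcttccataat
Tfrc, 3′ site 3: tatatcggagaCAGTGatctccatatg
Tfrc, 3′ site 4: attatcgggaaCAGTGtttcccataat

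In the mm9 build the Fth1 site lies at chr19:10057223-10057249 on the plus strand, the Ftl1 site at chr7:52715150-52715176 on the minus strand and the Slc40a1 site at chr1:45982311-45982337 on the minus strand, each in the 5′ untranslated part of an exon. The Tfrc sites lie at chr16:32631306-32631332, chr16:32631685-32631711, chr16:32631750-32631776 and chr16:32631797-32631823, all on the plus strand in the 3′ untranslated region. The pattern was a C, 5 stem bases, the loop CAGTG with 1 further base, and a facing strand with at least 4 of 5 pairs above the bulged C and 3 of 5 below it, G·T pairs allowed, on the transcribed strand alone. Of 19945 genes with an annotated 5′ untranslated region 0.306% held a match, and of 20007 genes with a 3′ untranslated region 1.25% did. No match in the other 6 genes, Slc11a2 included, says only that this pattern is not in these annotated regions.

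Library totals without circular RNAs ran from 19693029 to 20283527 counts in the controls and from 18826137 to 20026801 in the ox-LDL libraries. All 8 macrophage markers had rows, and their sum was 23168 to 42854 CPM (counts scaled to the library total) in controls and 13363 to 28376 with ox-LDL, in both groups mostly Lyz2. After the TMM scaling described next, Adgre1 and Cd14 were called higher with ox-LDL (log2 fold change 2.07 and 2.24, edgeR adjusted p = 0.000287 and 0.000846), and the other 6 were not called, with Itgam at -0.78 and Lyz2 at -0.67 the only values below 0. TMM scaling (trimmed mean of M-values) gave factors from 0.593 to 1.19, and the lowest belonged to ox-LDL replicate 2, in which short genes stood high. In each gene the edgeR quasi-likelihood test was run with all 12654 genes that passed the filter, and a gene was called at a Benjamini-Hochberg adjusted p below 0.01. By that rule 14.7% of all genes tested were called, 9.4% as higher in ox-LDL and 5.35% as lower. Of the 10 iron genes 5 were called, 4 higher (Cp, Slc11a2, Slc39a14 and Slc11a1) and 1 lower (Tfrc). Their median log2 fold change was 0.84, beside 0.10 over all genes tested. With the added limit of an absolute log2 fold change above 2, which 6.71% of all genes passed, only Cp passed. In TMM-normalized CPM the groups did not overlap in 5 of the 10 genes (Fth1, Tfrc, Slc11a1, Slc11a2 and Cp), against 20.7% of all genes tested. The 10 genes were chosen with earlier results of these data known, so these counts describe the list and test nothing.

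Per unit of length the ferritin chains stood far above the other 8 genes. In FPKM (fragments per kilobase, scaled to the library total), control means were 27316 ± 3922 (SD, n = 5) for Ftl1 and 24329 ± 3309 for Fth1, and the control ranges of these 2 genes overlapped. Ncoa4 at 152 ± 26.8 and Slc11a1 at 148 ± 40.9 followed and also overlapped. Tfrc stood at 31.3 ± 5.53, Slc11a2 at 19.3 ± 5.38 and Ireb2 at 6.09 ± 1.55 FPKM. The lowest levels were those of Slc39a14 at 1.20 ± 0.502, Slc40a1 at 0.686 ± 0.472 and Cp at 0.626 ± 0.245, whose ranges overlapped. In the ox-LDL libraries Fth1 led at 54099 ± 12117, above Ftl1 at 33620 ± 7392, and Cp moved from the last place to the 7th at 7.86 ± 7.45, next to Tfrc at 9.77 ± 4.51 and Ireb2 at 5.56 ± 2.14, with overlapping ranges. Slc40a1 was the lowest there, at 0.506 ± 0.264 FPKM.

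Fth1, the heavy chain (chr19:10057193-10059582, plus strand), took a larger share of the counts in every ox-LDL library than in any control. Its share of the library counts was 2.27%, 1.79%, 1.82%, 1.76% and 2.31% in control replicates 1 to 5. In ox-LDL replicates 1 to 5 it was 3.58%, 6.03%, 3.81%, 3.90% and 4.79%, highest in replicate 2. The mean share rose from 1.99% ± 0.273 to 4.42% ± 1.01 (SD, n = 5 each), a difference of 2.43 percentage points (two-sided exact permutation test, p = 0.00794, the smallest that 5 against 5 libraries allow). Fth1 had the highest count and the highest FPKM of all rows in each of the 5 ox-LDL libraries, and ranked between 3 and 6 by count in the controls. The 95% Wilson interval of a share was at most 0.0105 percentage points to either side and covers counting error only.

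On the TMM scale Fth1 stood at 24772, 15564, 15497, 17855 and 20043 CPM in control replicates 1 to 5. The ox-LDL values were 30036, 101786, 35579, 35118 and 57312 CPM. The groups did not overlap, and ox-LDL replicate 2 stood far above the other 4. The log2 fold change was 1.47 (SE 0.396), with an edgeR adjusted p of 0.0168, so Fth1 missed the threshold of 0.01. Without ox-LDL replicate 2 the log2 fold change was smaller, 1.03, and passed (adjusted p = 0.00742). Fth1 is a short gene, of 801 bases by its counts and FPKM. At this length the trend of a library's counts with gene length, on the log2 scale around the mean of the libraries, stood at 1.45 in ox-LDL replicate 2, between -0.51 and -0.33 in the other ox-LDL libraries and between -0.18 and 0.47 in the controls. With this trend removed the log2 fold change of Fth1 was 1.49 and the edgeR adjusted p 0.000189. Fth1 passed in only 5 of 23 other settings, the passing ones given here included. Its log2 fold changes there ran from 1.03 to 1.61. The highest adjusted p, 0.0721, came from the edgeR fit with the replicate number as a block.

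Ftl1, the light chain (chr7:52713314-52715254, minus strand), was not called. Its share of counts was 2.54%, 2.11%, 1.85%, 2.36% and 2.70% in control replicates 1 to 5, and 2.58%, 3.91%, 2.33%, 2.46% and 2.92% in ox-LDL replicates 1 to 5. The groups overlapped, and only ox-LDL replicates 2 and 5 exceeded every control. The means were 2.31% ± 0.337 and 2.84% ± 0.637, a difference of 0.529 percentage points (two-sided exact permutation test, p = 0.127). On the TMM scale the log2 fold change was 0.61 (SE 0.387, edgeR adjusted p = 0.271), and 0.16 without ox-LDL replicate 2. The Ftl1 counts were not whole numbers in any of the 10 libraries, so reads shared with other rows may have been split. Ferritin pseudogenes were not analysed here, the 3 other ferritin rows, of the Fthl17 family, held at most 1 count, and how reads from near-identical copies were assigned is uncertain for both chains.

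The balance of the chains can be read without any scaling between libraries. Fth1 counts over Ftl1 counts were 0.893, 0.849, 0.984, 0.747 and 0.855 in control replicates 1 to 5. In ox-LDL replicates 1 to 5 the ratio was 1.38, 1.54, 1.63, 1.59 and 1.64. Ftl1 held more counts in every control and Fth1 in every ox-LDL library, and ox-LDL replicate 2 sat inside the range of its group. The mean ratio was 0.866 ± 0.0854 in controls and 1.56 ± 0.104 with ox-LDL (SD, n = 5 each). Both rows have nearly the same length, 801 and 828 bases. Both chains together took 3.68% to 5.01% of the counts in controls and 6.14% to 9.94% with ox-LDL.

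**Figure D1:**
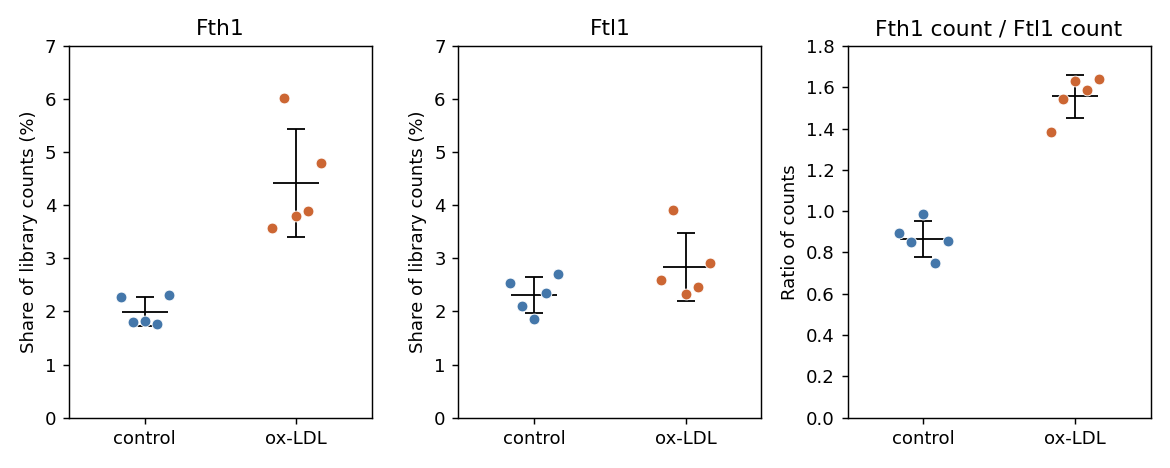
Share of library counts (percent) taken by Fth1 and by Ftl1, and the ratio of their counts, in the 5 control and 5 ox-LDL libraries. Points are libraries in replicate order, bars the mean ± SD. The groups separate for Fth1 and for the ratio, and overlap for Ftl1.

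Ncoa4 (chr14:32973051-32993041, plus strand) carries ferritin to the lysosome, where the iron is released. Its control levels were 540, 433, 366, 451 and 564 TMM-normalized CPM in replicates 1 to 5, and the ox-LDL levels were 530, 364, 671, 531 and 1267. Replicate 5 stood alone above the controls by more than their range, and the groups overlapped. Ncoa4 had a log2 fold change of 0.52 (SE 0.322, edgeR adjusted p = 0.263), and 0.14 without ox-LDL replicate 5. As for Ftl1, its counts were not whole numbers in any of the 10 libraries, so reads shared with other rows may have been split.

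Tfrc, the transferrin receptor (chr16:32609006-32632880, plus strand), brings transferrin-bound iron into endosomes and fell in the ox-LDL libraries. Its levels were 161, 116, 98.8, 180 and 152 TMM-normalized CPM in control replicates 1 to 5. They were 68.6, 42.0, 45.3, 34.0 and 48.1 in ox-LDL replicates 1 to 5. Every ox-LDL library stood below every control. Control libraries averaged 142 ± 33.4 CPM and ox-LDL libraries 47.6 ± 12.9 (mean ± SD of 5). The fitted log2 fold change was -1.57 (SE 0.238, edgeR adjusted p = 0.000577). Tfrc passed in all 23 other settings, with log2 fold changes from -1.78 to -1.47.

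Slc39a14 (chr14:70703274-70751232, minus strand) encodes a zinc-family transporter that also carries iron not bound to transferrin. It stood at 3.21, 5.39, 6.63, 2.88 and 6.65 TMM-normalized CPM in control replicates 1 to 5 and at 9.83, 6.51, 14.6, 16.8 and 16.5 with ox-LDL. Only ox-LDL replicate 2 fell inside the control range. The log2 fold change was 1.38 (SE 0.326, edgeR adjusted p = 0.00862). This call was lost in 13 of 23 other settings, among them library-size scaling (adjusted p = 0.0659) and leaving out any control replicate or ox-LDL replicate 3, 4 or 5, with adjusted p up to 0.0246 in those.

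Slc11a1 and Slc11a2 are proton-coupled metal transporters, the first in the phagosome membrane and the second in endosomes, where it moves iron from transferrin into the cytosol. Whether the Slc11a1 protein is functional in cells of this mouse strain was not tested, and its mRNA level does not show it. Slc11a1 (chr1:74421777-74432636, plus strand) stood at 241, 297, 323, 276 and 392 TMM-normalized CPM in control replicates 1 to 5. The ox-LDL values were 615, 419, 635, 710 and 822. The groups did not overlap, and the nearest libraries were ox-LDL replicate 2 and control replicate 5. The log2 fold change was 1.07 (SE 0.238, edgeR adjusted p = 0.00608).

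Slc11a2 (chr15:100218329-100255503, minus strand) changed more, from 46.2, 59.7, 66.1, 45.4 and 64.9 TMM-normalized CPM in control replicates 1 to 5 to 138, 97.8, 175, 169 and 212 with ox-LDL. Again no library overlapped, and ox-LDL replicate 2 was the lowest of its group. The log2 fold change was 1.49 (SE 0.231, edgeR adjusted p = 0.000667). In FPKM, which has no TMM factor, ox-LDL replicate 2 fell inside the control range for both genes, at 111 for Slc11a1 against 97.4 to 202 and at 18.3 for Slc11a2 against 13.3 to 24.2. The call of Slc11a2 was lost in 3 of 23 other settings, library-size scaling (adjusted p = 0.0110) and limma on FPKM with either offset. That of Slc11a1 was lost in 13, with adjusted p up to 0.0696, among them leaving out any of control replicates 1 to 4 or ox-LDL replicates 3 to 5 (up to 0.0227). Gm5475, annotated on the opposite strand within Slc11a2, had at most 2 counts in a library.

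Slc40a1, or ferroportin (chr1:45964915-45982439, minus strand), the known iron exporter of these cells, was near the bottom of the range in both groups. Its counts were 50, 22, 18, 35 and 94 in control replicates 1 to 5 and 51, 9, 34, 42 and 21 with ox-LDL. In TMM-normalized CPM that was 0.770 to 4.08 in controls and 0.771 to 2.22 in ox-LDL libraries. The ox-LDL values lay wholly inside the control range, which control replicate 5 set at its top. The log2 fold change was -0.37 (SE 0.473, 95% interval -1.30 to 0.56, edgeR adjusted p = 0.611), and it was 0.03 without control replicate 5, so no direction was detectable at these counts.

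Cp, or ceruloplasmin (chr3:19857054-19909145, plus strand), is a copper enzyme that oxidizes exported iron so that transferrin can bind it, and it showed the largest fold change of the 10 genes. Its counts were 24, 18, 40, 32 and 20 in control replicates 1 to 5 and 1554, 319, 343, 365 and 241 with ox-LDL. The groups were far apart, and ox-LDL replicate 1 stood well above the other 4. In TMM-normalized CPM controls averaged 1.27 ± 0.434 and ox-LDL libraries 28.7 ± 22.3 (mean ± SD of 5). The fitted log2 fold change was 4.50 (SE 0.495, edgeR adjusted p = 7.3e-05). Without ox-LDL replicate 1 it was 3.90, a fold change more than 1.5 times smaller, and it passed in all 23 other settings. Hps3 overlaps Cp on the opposite strand, and whether counting used the strand is not given in the sources used here. Hps3 stood at 24.3 to 29.4 CPM in controls and 15.6 to 26.2 with ox-LDL and was not called (log2 fold change -0.33).

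Beside Cp, the stromal markers Dcn and Col1a1 were called higher with ox-LDL (log2 fold change 1.57 and 2.72, edgeR adjusted p = 0.0032 and 0.0012). The 6 mesothelial and stromal markers summed to 12.4 to 40.7 CPM by library size in controls and 58.6 to 125 with ox-LDL. This sum was carried by Dcn and Col1a1, while Msln, Upk3b, Krt19 and Lum each had at most 30 counts. Upk3b went the other way, from 0.257 to 0.940 TMM-normalized CPM in controls to between 0 and 0.239 with ox-LDL. Msln, Krt19 and Lum overlapped between the groups. The 7 neutrophil markers with a row summed to 6.45 to 15.5 and 13.7 to 90.9 CPM, nearly all from S100a8. S100a8 was called higher with ox-LDL (log2 fold change 2.76, edgeR adjusted p = 0.0031), and the other neutrophil markers did not pass the filter. Elane and Mpo had 3 counts or fewer in every library. S100a9 reached at most 0.348 TMM-normalized CPM in controls and 0.299 with ox-LDL, and Retnlg 1.78 and 1.61. Camp was higher, at 0.144 to 0.956 against at most 0.0553 in controls, and Ngp reached 0.257 against 0.0869. The 7 erythroid markers with a row summed to at most 0.858 CPM in any library, and B cell, T cell and mast cell or eosinophil lists to at most 4.66 CPM. The part of stromal or neutrophil RNA in the changes of Cp and of the carriers below was not tested. In bulk RNA, fewer cells of a type and less RNA per cell cannot be told apart.

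Ireb2 (chr9:54711562-54760341, plus strand) encodes iron regulatory protein 2, which binds the hairpins shown above and is itself controlled mainly by protein breakdown. It stood at 28.0, 35.4, 36.3, 24.6 and 30.3 TMM-normalized CPM in control replicates 1 to 5 and at 36.8, 21.6, 33.8, 29.5 and 31.7 with ox-LDL. The groups covered nearly the same range. Ireb2 had a log2 fold change of -0.01 (SE 0.184, 95% interval -0.37 to 0.35, edgeR adjusted p = 0.974). Its mRNA therefore differed by less than the spread between replicates.

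**Figure D2:**
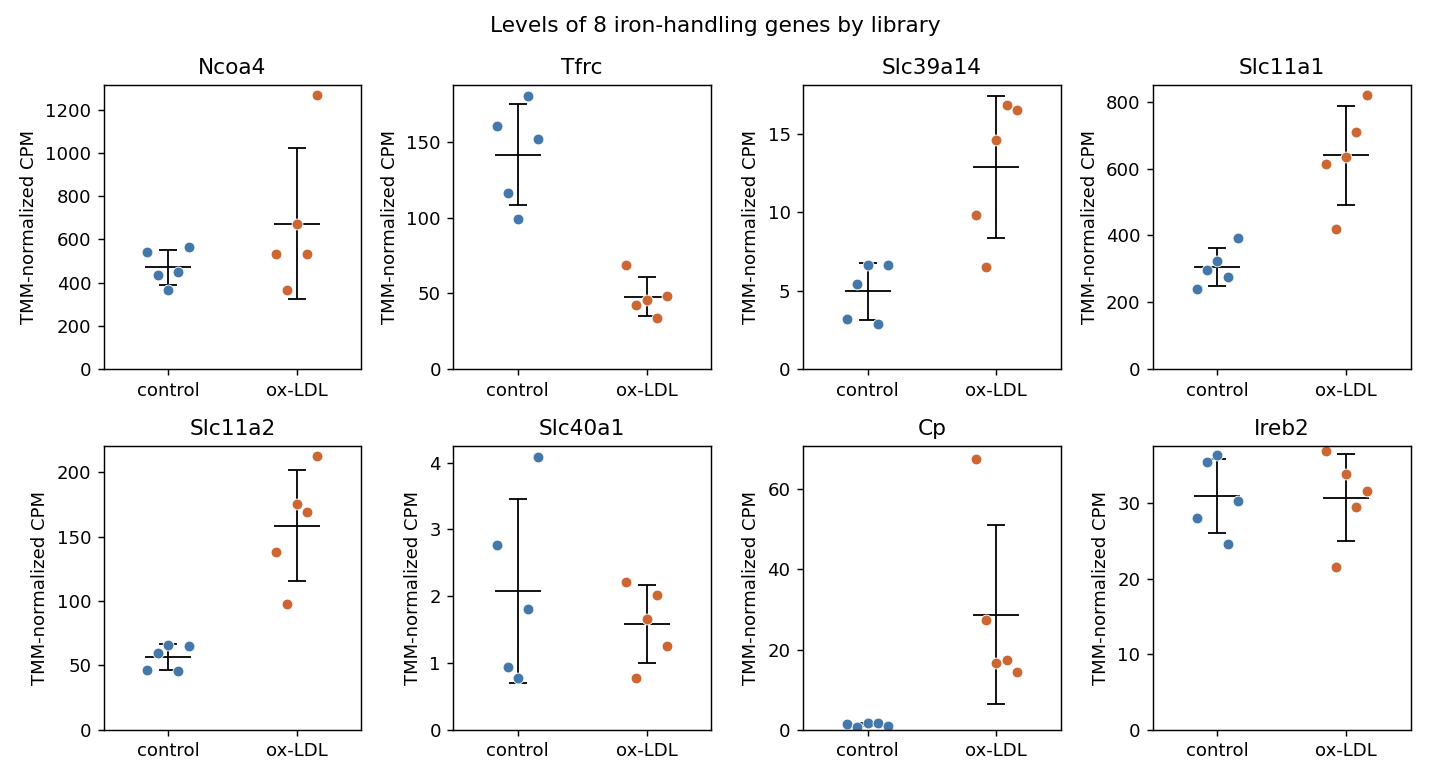
TMM-normalized CPM of the 8 iron genes other than the ferritin chains in the 5 control and 5 ox-LDL libraries, each panel with its own axis from 0. Points are libraries in replicate order, bars the mean ± SD. Tfrc separates downward, Slc11a1, Slc11a2 and Cp separate upward, and Ncoa4, Slc39a14, Slc40a1 and Ireb2 overlap.

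The other genes of iron and heme handling were taken from a list of 52, of which 50 had a row and 39 passed the filter. Of these 39, 11 were called higher in ox-LDL and 5 lower, with a median log2 fold change of -0.01 beside 0.10 over all genes. Over all genes tested 14.7% were called, 9.4% as higher and 5.35% as lower. Those shares also stand beside each count by role below. This list too was chosen with earlier results of these data known. In heme breakdown 2 of 4 genes were called, both higher. Hmox1, heme oxygenase 1, which opens the heme ring and frees its iron, stood at 232 to 283 TMM-normalized CPM in controls and 721 to 5659 with ox-LDL (log2 fold change 3.31, SE 0.471, edgeR adjusted p = 0.000394). Blvrb, a biliverdin reductase, went from 241 to 364 CPM to 512 to 2085 (log2 fold change 2.02). The constitutive Hmox2 and the reductase Blvra were not called, at -0.14 and -1.07. Blvra (edgeR adjusted p = 0.0627) stood at 189 to 336 CPM in controls and at 85.1, 268, 67.7, 63.9 and 102 in ox-LDL replicates 1 to 5. Only ox-LDL replicate 2 lay inside the control range. Alas1, the first enzyme of heme synthesis, was higher by 2.17 on the log2 scale, a call lost with limma on FPKM at either offset, and the other 5 genes of mitochondrial iron use that were tested were not called.

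Among carriers and receptors 2 were higher and 2 lower. Lcn2, which binds bacterial iron-carrying siderophores, stood at 0.599 to 3.34 CPM in controls and 76.2 to 245 with ox-LDL (log2 fold change 6.50, SE 0.576, edgeR adjusted p = 2.2e-05). Hp, haptoglobin, which binds free hemoglobin, was higher by 3.03. Trf, transferrin itself, fell by 1.97 on the log2 scale, from 73.7 to 268 CPM to 25.9 to 62.9. Its call was lost in 5 of 23 other settings, on leaving out control replicate 1 or 4 or ox-LDL replicate 3, 4 or 5 (edgeR adjusted p from 0.0102 to 0.0139). Cd163, the receptor for haptoglobin and hemoglobin, had 11 to 27.3 counts in controls and at most 2 with ox-LDL. The ratio of the summed counts, scaled to the library totals, was 19.5 (exact 95% counting interval 7.32 to 73.3), lower with ox-LDL (edgeR adjusted p = 0.00066). That interval covers counting error only, not the spread between libraries.

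The genes listed as ferrireductases, a role that reduces iron before transport, went both ways, and Steap4 and Frrs1 were not called. Whether each of their products reduces iron was not tested. Steap3, the reductase of the transferrin endosome, fell by 1.39, from 47.5 to 66.5 CPM to 10.4 to 30.4. Steap1 and Steap2 were higher, by 1.91 and 2.65, at levels of at most 4.78 CPM. The call of Steap3 was lost in 8 of 23 other settings and that of Steap1 in 13 of 22.

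Of the remaining transporters, Slc25a37, mitoferrin 1, which carries iron into mitochondria, was higher by 3.97 (SE 0.311, edgeR adjusted p = 1.1e-05), from 8.91 to 15.4 CPM to 120 to 282. Abcg2, which exports porphyrins among many substrates, fell by 1.64, a call lost in 4 of 23 other settings, under library-size scaling and on leaving out control replicate 1 or ox-LDL replicate 3 or 4 (edgeR adjusted p from 0.0102 to 0.0117). The call of the heme transporter Slc48a1, at 1.01 with an edgeR adjusted p of 0.00996, was lost in 16 of 23 other settings, and this gene and Hfe were named after their values were seen. Heph, the ferroxidase of the gut with the higher level of its pair, was not called, and its log2 fold change of 0.05 changed sign in 12 of 22 other settings.

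Among genes that sense or signal iron status, Fbxl5, which marks Ireb2 protein for breakdown when iron is plentiful, was higher by 2.66 (SE 0.438, edgeR adjusted p = 0.000973), and by 1.97 without ox-LDL replicate 5, which stood at 829 CPM against 166 to 230 in the other 4 and 41.1 to 56.5 in controls. The other 5 genes of this role, Aco1 included, were not called. Hamp, hepcidin, the hormone that removes ferroportin from the cell surface, had 0 to 2 counts in each control and 10 to 27 with ox-LDL. The ratio of the summed counts, scaled to the library totals, was 29.1 (exact 95% counting interval 9.61 to 144, edgeR adjusted p = 0.000592), at counts so low that a level cannot be given. That interval covers counting error only, not the spread between libraries. Of the 3 control counts 2 came from control replicate 5, and without that library the fitted log2 fold change moved from 4.80 to 5.70. Hamp2, listed in the same role, had at most 2 counts. Hfe was lower by the call (log2 fold change -2.31), which was lost in 13 of 23 other settings. The groups overlapped through ox-LDL replicate 1 alone, at 13.7 CPM against 1.43 to 3.43 in the other 4 and 13.5 to 40.5 in controls, and without that library the log2 fold change was -3.22 (edgeR adjusted p = 0.000136).

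**Figure D3:**
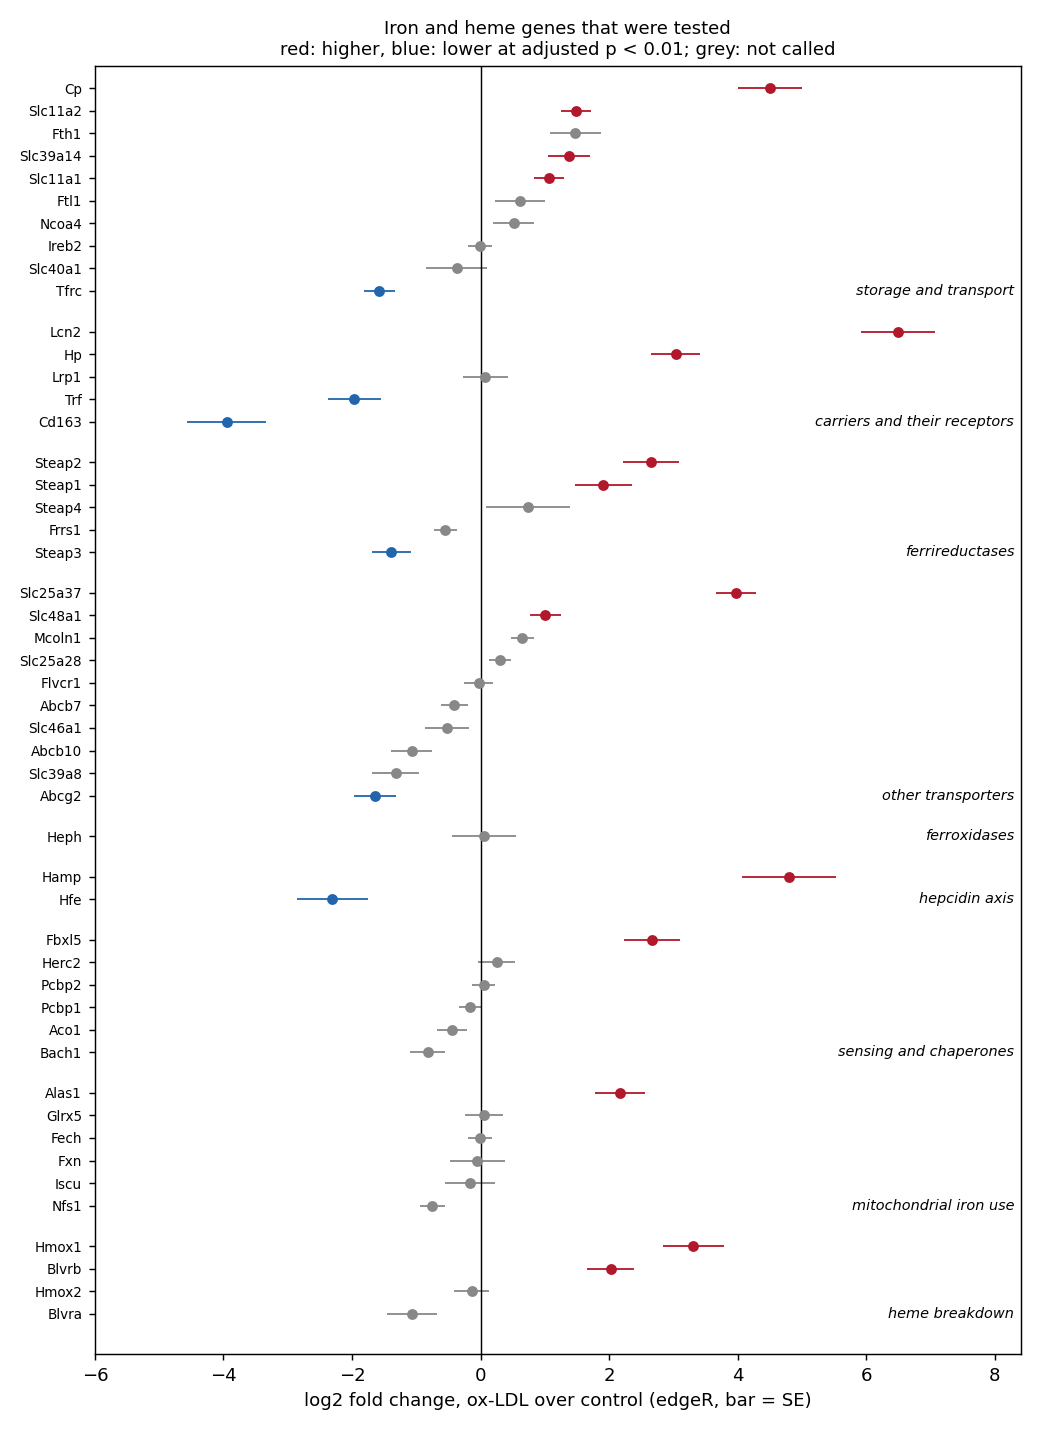
Log2 fold change of ox-LDL over control with its SE for the 10 iron storage and transport genes and the 39 other iron and heme genes tested, grouped by role. Red marks 15 genes called higher and blue 6 called lower at an adjusted p below 0.01, and grey those not called. The fitted values of Hamp and Cd163 rest on counts near 0 in 1 group.

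The genes whose levels ran most alike to the ferritin chains over the 10 libraries were found by Pearson's r of log2 (TMM-normalized CPM + 1). For Fth1 they were 1110038F14Rik, Mif and Psme1, each with r of 0.987, and for Ftl1 they were Ctsh (0.995), Trappc5 (0.988) and Pdcd2l (0.984). Fth1 and Ftl1 themselves had an r of 0.875. For Slc40a1 the values were lower, 0.859 for Usp21, 0.856 for Lig1 and 0.829 for Zfp768. The points are 10 libraries in 2 groups that share their scaling, and ox-LDL replicate 2 has the highest ferritin level, so these values are a description. The 3 genes nearest to Fth1 are also short, between 420 and 955 bases. Those nearest to Ftl1, itself of 828 bases, are longer, at 1277 for Ctsh, 1868 for Trappc5 and 1121 for Pdcd2l.

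**Figure D4:**
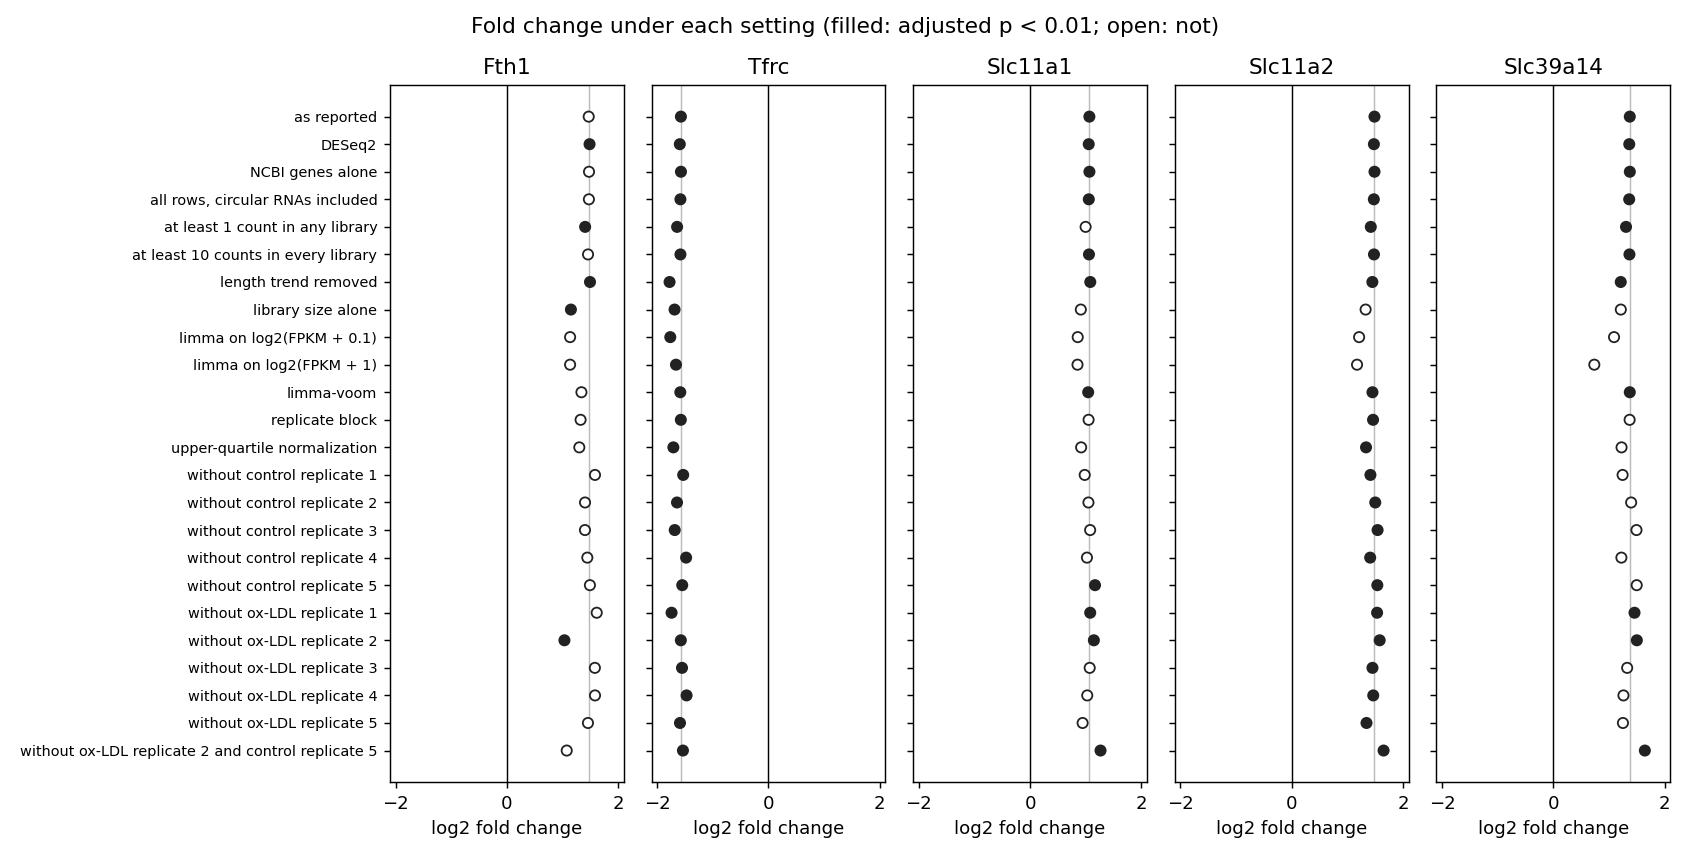
Log2 fold change of 5 iron genes under the reported setting and 23 others, 1 row a setting. Filled points have an adjusted p below 0.01 and open points do not. Tfrc is filled throughout and Slc11a2 in 20 of the 23 others, whereas Fth1 is filled in 5, and Slc11a1 and Slc39a14 in 10 each.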

How the data were processed

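Raw sequence processing was performed by the authors. Per the labels, reads were aligned to mm9 with HISAT2 2.0.5 and handled with SAMtools 1.4 and StringTie; the step that gave the counts and its strand setting are not given in the sources used here. The deposited series table holds estimated counts per gene (13.6% of values not whole), and the authors also deposited a table per library whose values behave as FPKM. Counts were rounded, 9788 circular RNA rows were left out, and NCBI Gene IDs were matched to symbols in a RefSeq table (22818 of 23382 matched).

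The groups, 5 libraries each, were compared with edgeR 4.0.16 (R 4.3.3, TMM scaling, filterByExpr, robust quasi-likelihood fit) over all genes. Shares of library counts were compared by two-sided exact permutation tests over the 10 libraries (252 arrangements, threshold 0.05). Alternatives were run with DESeq2 1.42.0, limma 3.58.1 (log2 of FPKM plus 1 or 0.1) and limma-voom. The fits were tested on simulated data. No 2 libraries agreed within sampling noise (lowest chi-square per degree of freedom within a group 11.9). Untranslated regions and coordinates came from the GENCODE vM1 annotation of NCBIM37, which is mm9. The 10 genes and the lists were chosen with earlier results of these data known. All 10 genes were described; of the other list, the genes called were named, at most 14 by lowest p, and the highest expressed gene of a role with none.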

Additional observations from a re-analysis of the deposited data

Results flagged for a closer look

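In the CPM of the 10 iron genes and of the 14 other genes named by rule, the ferritin shares and the ratio of the ferritin counts, 6 of 54 groups of 5 libraries had an outlying library by Dixon's test, where chance gives about 1 in 20 groups, or 2.7 of 54. Among the iron genes only Cp was flagged, in ox-LDL replicate 1, at 67.6 CPM against 14.4 to 27.3 in the other 4. The same library stood highest of its group for Abcg2, at 7.48 CPM against 2.39 to 3.08, and for Trf, at 62.9 against 25.9 to 33.7. Fbxl5 reached 829 CPM in ox-LDL replicate 5 against 166 to 230 in the other 4, and was lowest in control replicate 4, at 41.1 against 52.3 to 56.5. Cd163 stood at 1.39 CPM in control replicate 4 against 0.513 to 0.652. The causes were not tested. The ferritin values of ox-LDL replicate 2, which stand apart in the plot of shares, did not pass this limit.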

How the results depend on the processing

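Over all genes, 1866 were called, and 1262 to 1961 in the settings other than DESeq2 (3009), the fit with the length trend removed (2678), the fit over all rows (2004), the minimum of 1 count (1999), and those without ox-LDL replicate 2 alone (3257) or with control replicate 5 (3326, chosen after the data were seen). Leaving out 1 library gave 1262 to 3257. The split was 1189 higher and 677 lower, against 704 and 583 under library-size scaling, 956 and 808 under upper-quartile scaling, and 553 and 712 or 570 and 769 with limma on FPKM at an offset of 0.1 or 1. Those settings moved the median log2 fold change of all genes by -0.19, -0.14, -0.27 and -0.23, and the minimum of 1 count by 0.17. Of the iron genes 5 were called, 3 under library-size and under upper-quartile scaling, 2 with limma on FPKM at either offset, and 3 to 6 with 1 library left out. Of the other iron and heme genes 16 were called, 10 with at least 10 counts in every library (33 tested) and 11 to 17 with 1 library left out. The replicate numbers did not pair the libraries (same-number correlations from -0.28 to 0.44, 2 of 5 above 0.1, and 3 of 10 best matches with the own number). With the replicate number as a block 1434 genes, 3 iron genes and 12 of the other list were called, and the Fth1 share difference, 2.43 percentage points, had an exact sign-flip p of 0.0625, the smallest that 5 pairs allow. The Fth1 share kept its direction and its side of the threshold elsewhere, from 2.03 to 2.64 points with 1 library left out. The Ftl1 share passed only as a share of the summed FPKM (0.830 points, exact permutation p = 0.0238) and ran from 0.261 to 0.655 with 1 library left out. Of 227 values for the iron genes 186 kept direction and side, 29 lost the call, 5 gained it and 7 changed sign. Slc40a1 was at 0.03 without control replicate 5 (range -0.59 to 0.03 with 1 library left out) and 0.17 without it and ox-LDL replicate 2. Ireb2 was at 0.04 and 0.05 without control replicate 2 or 3, 0.05 and 0.0046 without ox-LDL replicate 2 or 4, and 0.058 without ox-LDL replicate 2 and control replicate 5 (range -0.091 to 0.052 with 1 library left out). Heph was at -0.016 with a minimum of 1 count, -0.33 under library-size and -0.11 under upper-quartile scaling, -0.45 and -0.26 with limma on FPKM at 0.1 and 1, -0.32 with limma-voom, -0.29 with the block, -0.019, -0.041, -0.022 and -0.80 without control replicate 1, 2 or 5 or ox-LDL replicate 2, and -0.86 without ox-LDL replicate 2 and control replicate 5 (range -0.80 to 0.31 with 1 library left out). The cause was not tested. Slc40a1 was left out by the FPKM filter and by the minimum of 10 counts. Low counts per library limit Slc40a1 and control Cp.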
